A study of Mus musculus with 35 samples.

Results

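Hepcidin and the genes that handle iron in liver were followed in the RNA of 21 mice. The 10 genes were a named list, Hamp, Hamp2, Bmp6, Id1, Smad7, Tfrc, Tfr2, Slc40a1, Fth1 and Ftl1, and all 10 were found among the 55413 genes of the count table by their Ensembl identifiers. All 10 passed the filter on low counts, which kept 15297 genes. The mice were C57Bl6 and their liver pieces were sequenced with a 3' kit, whose reads start near the poly(A) tail of an RNA. Mice called Smyd3-ASO (6) were given the carcinogen diethylnitrosamine (DEN) at postnatal day 14, 25 mg/kg, then 50 mg/kg of an antisense oligonucleotide (ASO) against the methyltransferase Smyd3 by intraperitoneal injection 2 times a week from day 133, and were harvested on day 260. Control-ASO mice (6) had the same DEN dose and the same schedule of a control ASO, also to day 260. DEN day 133 mice (4) had DEN only and were harvested on day 133. Untreated mice (5) had neither DEN nor ASO and were harvested on day 260. The labels call every DEN sample tumour of the liver, with the cell type given as hepatocellular carcinoma, and every untreated sample normal liver. ASO mice differ from untreated mice in DEN and in ASO at once, and DEN day 133 mice differ from untreated mice in DEN and in age. Control-ASO mice differ from DEN day 133 mice in ASO and in age. In those comparisons the parts of each cannot be told apart.

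Hepcidin is a peptide hormone made by hepatocytes that binds the iron exporter ferroportin (Slc40a1) and has it degraded, which lowers iron entry into plasma. Its transcription in hepatocytes is driven by bone morphogenetic protein (BMP) ligands such as Bmp6, secreted by sinusoidal endothelial cells, through SMAD proteins, and by interleukin-6 through STAT3. Id1 and Smad7 are targets of the same BMP-SMAD signal, and Smad7 also dampens it. Within cells, iron regulatory proteins bind stem-loops called iron-responsive elements when iron is scarce: they block translation of the ferritins (Fth1, Ftl1) and of ferroportin, and they stabilise the RNA of the transferrin receptor Tfrc. Mice carry a second hepcidin gene, Hamp2, next to Hamp.

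The promoters of both hepcidin genes are shown because the genes moved apart in these livers. Each run holds the 250 bases before the RefSeq transcription start (GRCm38.p6, both on the minus strand). Capitals mark GGCGCC, the core of the BMP-responsive element known in hepcidin promoters, and TTCNNNGAA, the STAT-binding pattern, each searched on both strands.
Hamp (chr7:30944030-30944279): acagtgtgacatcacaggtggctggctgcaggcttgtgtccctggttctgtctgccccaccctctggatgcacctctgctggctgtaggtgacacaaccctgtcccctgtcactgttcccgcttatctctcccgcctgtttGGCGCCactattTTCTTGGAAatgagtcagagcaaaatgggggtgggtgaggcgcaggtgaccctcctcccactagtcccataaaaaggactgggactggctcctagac
Hamp2 (chr7:30924182-30924431): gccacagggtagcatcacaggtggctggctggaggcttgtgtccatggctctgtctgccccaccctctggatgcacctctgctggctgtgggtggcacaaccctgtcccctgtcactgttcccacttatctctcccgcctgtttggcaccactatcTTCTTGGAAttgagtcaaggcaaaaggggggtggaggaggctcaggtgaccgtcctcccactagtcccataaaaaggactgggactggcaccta
The Hamp window holds GGCGCC from -109 to -104 and TTCTTGGAA from -97 to -89, counted back from the start. Hamp2 keeps TTCTTGGAA, with its first base at -94, and has the bases GGCACC where Hamp has GGCGCC, a difference of G4A counted from the first base of GGCGCC. Over 247 aligned bases the promoters were 91.9% identical. Of 32851 promoter windows of 250 bases in RefSeq, 9.586% held GGCGCC, 7.02% held TTCNNNGAA and 0.3683% held both. A window for a start of Tfrc held GGCGCC with its first base at -89, and no other motif was found in the windows for Bmp6, Tfrc, Tfr2, Fth1 and Ftl1. A match is a description of letters and no evidence of binding in these samples.

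Iron-responsive elements found by pattern in the members are shown because they mark which RNAs are under translational control (5' untranslated region) and which under control of stability (3' untranslated region). Capitals mark the bulged C and the CAGTGN loop with its closing stem written in lower case, in 27 bases of the GENCODE vM21 transcript.
Fth1 5' (chr19:9982733-9982759, plus strand): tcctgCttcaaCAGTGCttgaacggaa
Ftl1 5' (chr7:45459780-45459806, minus strand): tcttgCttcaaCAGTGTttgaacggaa
Slc40a1 5' (chr1:45925466-45925492, minus strand): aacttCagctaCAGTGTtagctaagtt
Tfrc 3' (chr16:32631220-32631246, plus strand): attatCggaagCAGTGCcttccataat
Tfrc 3' (chr16:32631599-32631625, plus strand): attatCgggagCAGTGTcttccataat
Tfrc 3' (chr16:32631664-32631690, plus strand): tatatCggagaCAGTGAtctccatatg
Tfrc 3' (chr16:32631711-32631737, plus strand): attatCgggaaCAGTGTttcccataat
This loop with a paired stem was present in the 5' untranslated region of 0.1279% and in the 3' untranslated region of 0.5799% of 21899 coding genes. An element that departs from this loop or stem would be missed, so the matches are not a full count. Fth1, Ftl1 and Slc40a1 had 1 match each in the 5' region, and Tfrc had 4 in the 3' region. Counts of RNA do not show translation, so the first 3 of these genes were read here only for RNA level.

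Levels are in counts-per-million units (CPM) after TMM scaling over all mice, and changes are log2 fold changes with their standard error (SE) from edgeR's quasi-likelihood test, called at a Benjamini-Hochberg adjusted p below 0.05 over all 15297 genes. Total counts per mouse were 6358080 to 20258619 in Smyd3-ASO, 6789715 to 13805881 in control-ASO, 4556484 to 6447397 in DEN day 133 and 10186780 to 13116012 in untreated mice. Smyd3 itself had 0 to 13 counts in Smyd3-ASO mice and 29 to 68 in control-ASO mice, in the direction the labels give. All 9 hepatocyte markers were detected in every group, and their summed level was 22449 to 38818 CPM in Smyd3-ASO, 51762 to 70787 in control-ASO, 43025 to 45140 in DEN day 133 and 55838 to 108053 in untreated mice. In pieces of liver, fewer cells of a type and less RNA per cell cannot be told apart. Some mice stood apart: untreated mouse 5 had 30504 CPM of the acute-phase gene Saa1, against 124 to 695 CPM in the other untreated mice. The clock-controlled gene Dbp was at 33.3 CPM or less in all Smyd3-ASO mice, at 9.46 and 11.6 CPM in control-ASO mice 1 and 2, at 93.5 to 107 CPM in control-ASO mice 3 to 6 and at 1.52 to 8.83 CPM in DEN day 133 mice. In untreated mice it was at 13.0 CPM in mouse 5 and 92.0 to 119 CPM in mice 1 to 4. Dbp therefore differed between groups as well as within them: its log2 change was -2.23 (adjusted p = 0.00775) for Smyd3-ASO over untreated, -4.55 (adjusted p = 0.00656) for DEN day 133 over untreated, 4.18 (adjusted p = 0.0183) for control-ASO over DEN day 133 and -1.84 (adjusted p = 0.0561) for Smyd3-ASO over control-ASO. The clock gene Arntl was higher than in untreated mice, on the log2 scale by 3.27 (adjusted p = 0.00105) in Smyd3-ASO, 2.95 (adjusted p = 0.00637) in control-ASO and 4.49 (adjusted p = 5.23e-05) in DEN day 133 mice. The time of day of harvest is not given in the sources used here, and the part of the clock genes in the results was not tested. The tests of single genes were also run without control-ASO mice 1 and 2 and untreated mouse 5, whose Dbp was far below the rest of their own group. Values without these 3 mice are given for Hamp and where direction or side of the threshold changed. The ratios within a mouse were not run without them.

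Under Smyd3-ASO against control ASO, 2 of the 10 genes rose, Hamp and Ftl1, and none fell, against 26.1% of all genes called in this comparison, 13.3% higher and 12.9% lower. In control-ASO against untreated mice 7 of 10 fell and Id1 alone rose, against 45.9% of all genes called, 22.2% lower and 23.7% higher. The genes that fell were Hamp2, Bmp6, Smad7, Tfr2, Slc40a1, Fth1 and Ftl1. In Smyd3-ASO against untreated mice 5 fell (Hamp2, Tfr2, Slc40a1, Fth1 and Ftl1) and Id1 rose, against 47.6% of all genes called, 23.2% lower and 24.4% higher. DEN day 133 mice had only the ferritins Fth1 and Ftl1 lower than untreated mice, 2 of 10, where 31.6% of all genes were called and 16.6% lower. Control-ASO against DEN day 133 mice had Tfr2, Slc40a1 and Fth1 lower and Id1 higher, 4 of 10, where 27% of all genes were called, 12.6% lower and 14.4% higher. The 5 comparisons share groups of mice and are not independent of each other. In the same order, the median log2 change of the 10 genes was 0.22, -0.84, -0.57, -0.14 and -0.54, where the median of all genes tested was 0.01, 0.06, 0.06, 0.0018 and 0.03.

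**Figure D1:**
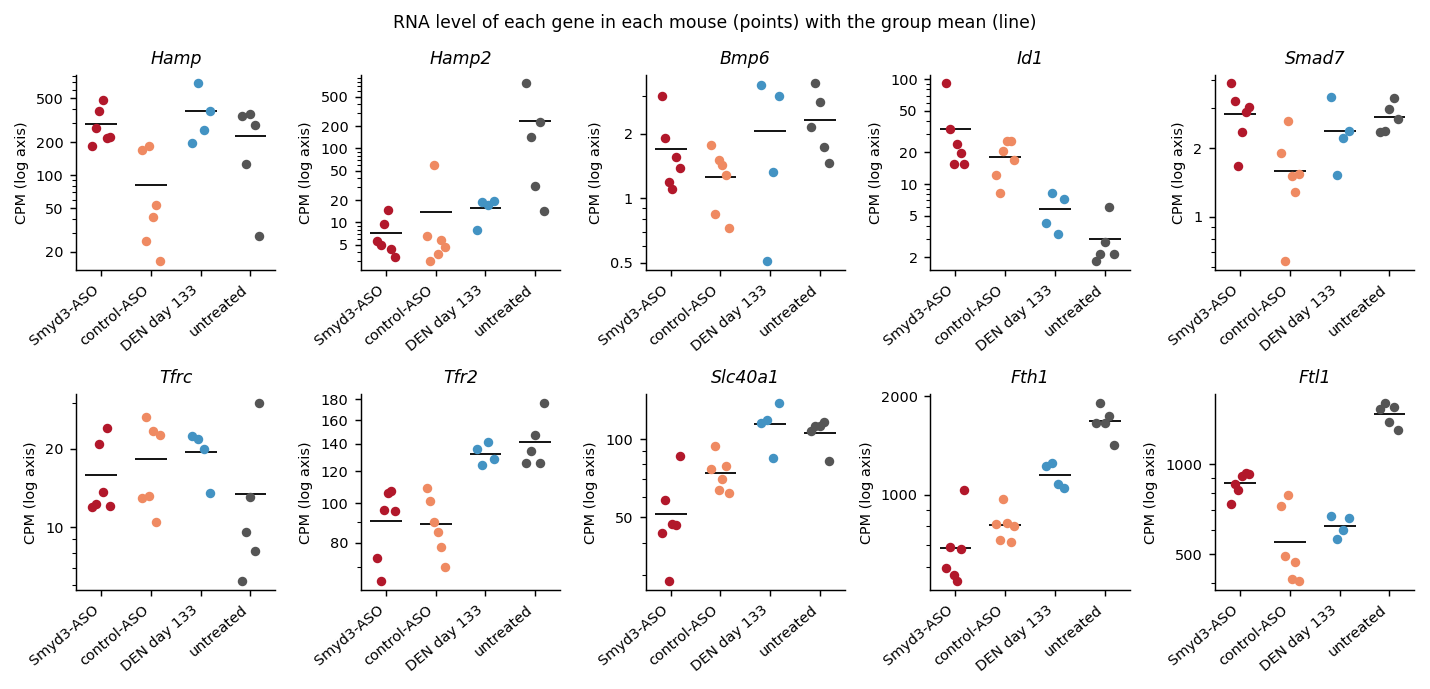
Level of the 10 genes in each mouse (CPM, log axis) in Smyd3-ASO, control-ASO, DEN day 133 and untreated mice; each point is a mouse and each line a group mean. Hamp in all 6 Smyd3-ASO mice lies at 185.9 CPM or more, above every control-ASO mouse, while Fth1 and Ftl1 are highest in untreated mice.

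Hamp was higher under Smyd3-ASO than under control ASO. Its level was 185.9 CPM in the lowest, 244 in the median and 481 in the highest Smyd3-ASO mouse, against 16.4, 47.4 and 185.5 CPM in control-ASO mice. No control-ASO mouse reached the Smyd3-ASO range, but control-ASO mice 1 and 3, at 168 and 185.5 CPM, lay just below it and the other 4 were at 16.4 to 53.4 CPM. The means were 292 ± 115 CPM in Smyd3-ASO and 81.7 ± 75.0 CPM in control-ASO mice (SD, n = 6 each), a log2 change of 1.84 (SE 0.57, edgeR adjusted p = 0.0339) or 3.57-fold. The call did not survive leaving out Smyd3-ASO mouse 2, 3 or 4 or control-ASO mouse 2, 4 or 5 (adjusted p = 0.0541 to 0.0681, log2 change 1.64 to 1.86), nor testing without a filter on low counts (adjusted p = 0.0848). Without the 3 mice set apart by Dbp it held, at log2 1.99 (adjusted p = 0.0403), but the control-ASO mice that remain are all at 93.5 CPM of Dbp or more, against at most 33.3 CPM in Smyd3-ASO mice, so the groups then lie further apart in this gene. Of 9 hepatocyte markers 4 fell and 1 rose in the same comparison, where 12.9% of all genes were lower and 13.3% higher. Their summed levels in Smyd3-ASO mice all lay below those of control-ASO mice. Alb alone was at 13207 to 29252 CPM in Smyd3-ASO and 36456 to 54638 CPM in control-ASO mice. Hnf4a, Serpinc1, Apob and Tat were not called, and Cyp2e1 rose by 1.22. Of 9 acute-phase markers 3 rose under Smyd3-ASO (Saa3, Orm1 and Orm2), where 13.3% of all genes were higher. The summed level of the 9 was 3917 to 38039 CPM in Smyd3-ASO and 3936 to 10939 CPM in control-ASO mice. The part of inflammation in the Hamp difference was not tested.

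Against the other groups Hamp was not called. Levels at DEN day 133 were 196, 685, 259 and 385 CPM, and untreated mice had 347, 126, 360, 287 and 28.2 CPM. The log2 change was 0.73 (SE 0.73, adjusted p = 0.485) for DEN day 133 over untreated, -1.49 (SE 0.80, adjusted p = 0.156) for control-ASO over untreated and 0.33 (SE 0.52, adjusted p = 0.629) for Smyd3-ASO over untreated. Untreated mouse 5, the mouse of high Saa1, had the lowest Hamp of its group. Control-ASO mice all lay below DEN day 133 mice, with a log2 change of -2.22 (SE 0.76, adjusted p = 0.0608). That difference passed the threshold with DESeq2 (adjusted p = 0.0146), with limma voom (adjusted p = 0.0110), in 1 fit of all 4 groups (adjusted p = 0.0223) and without control-ASO mouse 1 (adjusted p = 0.0482) or 3 (adjusted p = 0.0383).

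Hamp2, the neighbouring gene, was highest in untreated mice. Smyd3-ASO mice ran from 3.41 to 14.8 CPM with a median of 5.26, control-ASO mice from 2.97 to 60.1 CPM with a median of 5.20, and DEN day 133 mice had 7.78, 18.6, 17.3 and 19.7 CPM. The 5 untreated mice had 755, 142, 30.8, 226 and 14.3 CPM. A 52.8-fold range separated the untreated mice, and untreated mouse 5 lay within the range of the DEN groups. The log2 change was -5.05 (SE 0.98, adjusted p = 0.00199) for Smyd3-ASO over untreated and -4.10 (SE 1.26, adjusted p = 0.0243) for control-ASO over untreated. The second call moved with single mice: without untreated mouse 1 it was -2.92 (adjusted p = 0.0669), without control-ASO mouse 3 it was -5.64 (adjusted p = 0.00417), and without control-ASO mouse 1, 5 or 6 its adjusted p was 0.0502 to 0.0521. It was also lost without the 3 mice set apart by Dbp (log2 -3.98, adjusted p = 0.0734). The first call was -3.87 (adjusted p = 0.00251) without untreated mouse 1. DEN day 133 over untreated gave -3.87 (SE 1.25, adjusted p = 0.0526), which passed without untreated mouse 5 (-4.17, adjusted p = 0.0256), without untreated mouse 3 (-4.15, adjusted p = 0.0416), with DESeq2 (adjusted p = 7.15e-04) and in 1 fit of all 4 groups (adjusted p = 0.0162).

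Between ASO groups Hamp2 was not called, with a log2 change of -0.94 (SE 0.77, adjusted p = 0.387). Control-ASO mouse 3, at 60.1 CPM, set that sign, and without it the change was 0.60. For control-ASO over DEN day 133 the change was -0.23 (SE 0.97, adjusted p = 0.888), and without control-ASO mouse 3 it was -1.76 (adjusted p = 6.94e-04). The annotated transcripts of Hamp and Hamp2 are 94.63% identical over 410 bases and 90% identical over the last 190 aligned bases, so some reads could have been assigned to the wrong gene of the pair.

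The ratio of Hamp2 to Hamp within a mouse does not depend on scaling between mice. Its log2 value was -5.46 ± 0.39 in Smyd3-ASO (n = 6), -2.98 ± 1.13 in control-ASO (n = 6), -4.50 ± 0.55 in DEN day 133 (n = 4) and -0.71 ± 1.76 in untreated mice (SD, n = 5). Every Smyd3-ASO mouse, at -5.02 or less, lay below every untreated mouse, at -3.54 or more, and below every control-ASO mouse, at -4.69 or more. The difference was -2.48 for Smyd3-ASO minus control-ASO (exact two-sided permutation p = 0.00216, the smallest that 924 splits allow, adjusted over 15 tests to 0.0162). It was -4.75 for Smyd3-ASO minus untreated (exact permutation p = 0.00433, adjusted 0.0216) and -3.79 for DEN day 133 minus untreated (exact permutation p = 0.0159, adjusted 0.0260). Control-ASO minus untreated gave -2.27 (exact permutation p = 0.0346, adjusted 0.0472) and control-ASO minus DEN day 133 gave 1.52 (exact permutation p = 0.0381, adjusted 0.0476). The last pair of differences lost its adjusted call when most single mice were left out, in 8 of 11 and 9 of 10 cases.

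**Figure D2:**
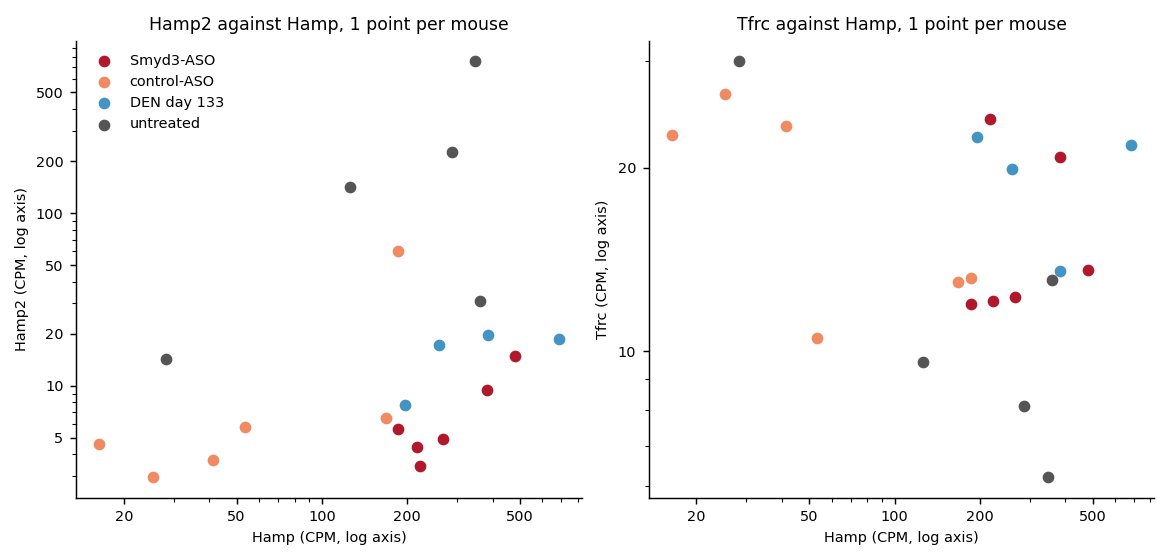
Hamp2 (left) and Tfrc (right) against Hamp in each mouse, in CPM on log axes, coloured by Smyd3-ASO, control-ASO, DEN day 133 and untreated. Hamp2 is above 100 CPM in 3 untreated mice, and the 4 mice with Hamp at or under 41.3 CPM have Tfrc at 22.7 CPM or more.

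Bmp6, the BMP ligand that raises hepcidin when liver iron is high, was read from few counts, 3 to 50 per mouse. It averaged 1.69 ± 0.70 CPM in Smyd3-ASO, 1.26 ± 0.40 in control-ASO, 2.05 ± 1.36 in DEN day 133 and 2.32 ± 0.80 CPM in untreated mice (SD, n = 6, 6, 4 and 5). Groups overlapped in every comparison. Control-ASO over untreated was the only call, at log2 -0.88 (SE 0.31, adjusted p = 0.0331), and with total counts as the scale it was -0.04 and not called, or -0.94 relative to the median of all genes. It was also lost in 1 fit of all 4 groups (adjusted p = 0.0650), without a filter (adjusted p = 0.0707) and without control-ASO mouse 2 or 6 or untreated mouse 2 or 3 (adjusted p = 0.0650 to 0.112). Smyd3-ASO over control-ASO was 0.42 (SE 0.31, adjusted p = 0.331). Bmp6 overlaps Txndc5 on the opposite strand, which had 7215 counts over all mice against 404 for Bmp6. Whether the counting used strand is not given in the sources used here, so reads of the pair cannot be told apart. Txndc5 fell in control-ASO over untreated mice as well, by 0.82 on the log2 scale (adjusted p = 7.05e-04).

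Id1, a transcription regulator and BMP-SMAD target, was higher in both ASO groups than in untreated mice. Smyd3-ASO mice ran from 15.5 to 91.3 CPM with a median of 22.0, and control-ASO mice from 8.26 to 26.0 CPM with a median of 18.7. DEN day 133 mice had 4.20, 8.13, 3.32 and 7.26 CPM, and untreated mice had 1.82, 2.13, 2.80, 6.09 and 2.14 CPM. Every ASO mouse lay above every untreated mouse and above every DEN day 133 mouse. The log2 change was 3.46 (SE 0.58, adjusted p = 5.82e-04) for Smyd3-ASO over untreated, 2.62 (SE 0.39, adjusted p = 1.90e-04) for control-ASO over untreated and 1.64 (SE 0.37, adjusted p = 0.00738) for control-ASO over DEN day 133. Without Smyd3-ASO mouse 1, at 91.3 CPM, the first of these was 2.85 (adjusted p = 5.82e-05). Smyd3-ASO over control-ASO gave 0.87 (SE 0.46, adjusted p = 0.179), and 0.25 without that mouse. DEN day 133 over untreated gave 0.97 (SE 0.38, adjusted p = 0.0615), and 1.39 (adjusted p = 0.00611) without untreated mouse 4, or 1.15 (adjusted p = 0.0388) without DEN day 133 mouse 3. It also passed with limma voom (adjusted p = 0.0412) and without a filter (adjusted p = 0.0311).

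Hamp and Id1, both targets of the BMP-SMAD signal, kept no fixed ratio. The log2 ratio of Hamp to Id1 was 3.37 ± 1.29 in Smyd3-ASO, 1.71 ± 1.49 in control-ASO, 5.96 ± 0.42 in DEN day 133 and 5.91 ± 1.49 in untreated mice (SD, n = 6, 6, 4 and 5). Control-ASO minus untreated was -4.20 (exact permutation p = 0.00866, adjusted 0.0260) and control-ASO minus DEN day 133 was -4.25 (exact permutation p = 0.00952, adjusted 0.0260). Smyd3-ASO minus untreated was -2.54 (exact permutation p = 0.0173, adjusted 0.0260). Between ASO groups the difference was 1.66 (exact permutation p = 0.0693, adjusted 0.0799), and it passed without Smyd3-ASO mouse 1 (2.13, exact permutation, adjusted p = 0.0354) or control-ASO mouse 1 (2.08, exact permutation, adjusted p = 0.0433). DEN day 133 minus untreated was 0.05 (exact permutation p = 1).

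**Figure D3:**
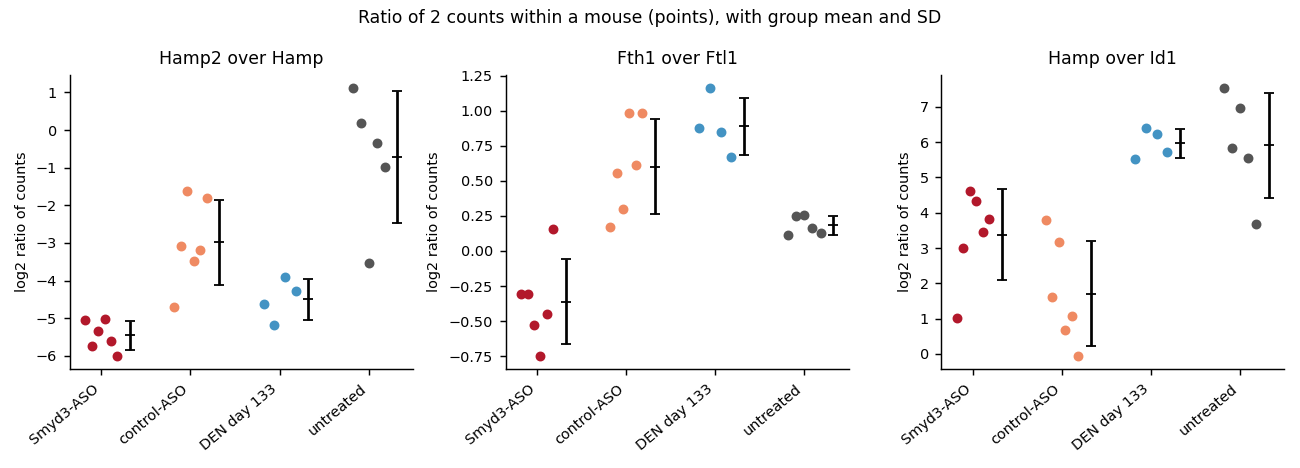
Log2 ratios of Hamp2 to Hamp, Fth1 to Ftl1 and Hamp to Id1 within each mouse (points), with the group mean and SD (bars), in Smyd3-ASO, control-ASO, DEN day 133 and untreated mice. Hamp2 over Hamp lies at -5.02 or less in all 6 Smyd3-ASO mice and Fth1 over Ftl1 is above 0 in 1 of them.

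Smad7, the inhibitory SMAD, was read from 9 to 83 counts per mouse. It ran from 1.68 to 3.85 CPM with a median of 2.95 in Smyd3-ASO mice and from 0.636 to 2.64 CPM with a median of 1.53 in control-ASO mice. Levels at DEN day 133 were 3.36, 1.52, 2.22 and 2.37 CPM and untreated mice had 2.36, 2.37, 2.96, 3.33 and 2.67 CPM. All groups overlapped, with control-ASO mice at the low end. Control-ASO over untreated was called at -0.80 (SE 0.31, adjusted p = 0.0444), but with total counts as the scale the sign turned (0.047, or -0.86 relative to the median of all genes), without a filter the adjusted p was 0.0867, and without the 3 mice set apart by Dbp it was 0.109. The call was also lost on leaving out each mouse but control-ASO 1 and 3 (adjusted p = 0.0545 to 0.0999). Smyd3-ASO over control-ASO was 0.84 (SE 0.30, adjusted p = 0.0520), which passed with DESeq2 (adjusted p = 0.0252), limma voom (adjusted p = 0.0452), 1 fit of all 4 groups (adjusted p = 0.0216), without Smyd3-ASO mouse 3 (adjusted p = 0.0315) or without control-ASO mouse 3 (adjusted p = 0.0253). Smyd3-ASO over untreated was 0.02 (SE 0.24, adjusted p = 0.940), and its sign turned with limma voom and without several single mice.

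Tfr2, the hepatocyte sensor of iron-loaded transferrin, was lower in both ASO groups. Smyd3-ASO mice ran from 64.5 to 107 CPM with a median of 95.9 and control-ASO mice from 69.8 to 109 CPM with a median of 87.5. The 4 DEN day 133 mice had 136, 124, 142 and 128 CPM, and untreated mice had 125, 135, 147, 126 and 176 CPM. Every ASO mouse lay below every DEN day 133 and every untreated mouse. The log2 change was -0.67 (SE 0.17, adjusted p = 0.00462) for Smyd3-ASO over untreated and -0.67 (SE 0.14, adjusted p = 0.00126) for control-ASO over untreated; with total counts as the scale both signs turned, to 0.22 and 0.18. Relative to the median of all genes under that scale they were -0.74 and -0.72. Control-ASO over DEN day 133 gave -0.57 (SE 0.13, adjusted p = 0.00554). Smyd3-ASO over control-ASO gave 0.02 (SE 0.16, adjusted p = 0.942), a value whose sign turned without some single mice, and DEN day 133 over untreated gave -0.09 (SE 0.13, adjusted p = 0.623). Of 9 hepatocyte markers 6 fell and 1 rose in Smyd3-ASO over untreated mice, where 23.2% of all genes were lower. In control-ASO over untreated mice 4 fell and 1 rose (22.2% of all genes lower). For DEN day 133 over untreated 5 fell and 0 rose (16.6% lower). For control-ASO over DEN day 133 1 fell and 2 rose (12.6% lower). The part of hepatocyte content in the Tfr2 result was not tested.

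Tfrc, the receptor that takes up transferrin iron and whose RNA is stabilised when iron is scarce, was called in no comparison. It averaged 15.8 ± 5.3 CPM in Smyd3-ASO, 18.2 ± 6.7 in control-ASO, 19.5 ± 4.1 in DEN day 133 and 13.4 ± 9.6 CPM in untreated mice (SD, n = 6, 6, 4 and 5). Untreated mice 1 to 4 had 6.22, 9.59, 13.1 and 8.12 CPM and untreated mouse 5 had 29.9 CPM, the highest of all 21 mice. Without untreated mouse 5 all 3 comparisons with untreated mice passed: Smyd3-ASO over untreated at 0.76 (adjusted p = 0.0367), control-ASO over untreated at 0.99 (adjusted p = 0.0177) and DEN day 133 over untreated at 1.08 (adjusted p = 0.00226). With that mouse they were 0.23 (SE 0.38, adjusted p = 0.644), 0.45 (SE 0.41, adjusted p = 0.396) and 0.55 (SE 0.45, adjusted p = 0.396), and with total counts as the scale all 3 passed (1.13, 1.36 and 1.18). Relative to the median of all genes, which moves with that scale, they were 0.17, 0.46 and 0.59. Without the 3 mice set apart by Dbp, control-ASO over untreated was 0.92 (adjusted p = 0.0311). Smyd3-ASO over control-ASO was -0.21 (SE 0.26, adjusted p = 0.566). Tfrc was at 26.5, 23.4 and 22.7 CPM in control-ASO mice 2, 4 and 6, whose Hamp was 25.3, 41.3 and 16.4 CPM. In control-ASO mice 1, 3 and 5 it was at 13.0, 13.2 and 10.5 CPM, with Hamp at 168, 185.5 and 53.4 CPM. Smyd3-ASO mice 3 and 5 had Tfrc at 20.9 and 24.1 CPM with Hamp at 383 and 217 CPM, so high Tfrc did not always go with low Hamp.

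Slc40a1, ferroportin, was lower in both ASO groups than in untreated mice. Smyd3-ASO mice ran from 28.4 to 86.1 CPM with a median of 47.1, and control-ASO mice from 61.9 to 94.1 CPM with a median of 73.4. DEN day 133 mice had 116, 119, 84.8 and 137 CPM, and untreated mice had 107, 112, 112, 117 and 82.1 CPM. The ASO groups overlapped each other, DEN day 133 and untreated mice only through Smyd3-ASO mouse 6, control-ASO mouse 2, DEN day 133 mouse 3 and untreated mouse 5. Smyd3-ASO over untreated was -1.06 (SE 0.22, adjusted p = 0.00167) and -0.14 with total counts as the scale. Control-ASO over untreated was -0.51 (SE 0.13, adjusted p = 0.00614), and with total counts as the scale its sign turned (0.33), or -0.57 relative to the median of all genes. Control-ASO over DEN day 133 was -0.62 (SE 0.15, adjusted p = 0.00739), not called with total counts as the scale (-0.37, adjusted p = 0.0727). Smyd3-ASO over control-ASO was -0.53 (SE 0.21, adjusted p = 0.0763). Without Smyd3-ASO mouse 6 it passed at -0.73 (adjusted p = 0.00724), and in 1 fit of all 4 groups the adjusted p was 0.0386. DEN day 133 over untreated was 0.11 (SE 0.15, adjusted p = 0.615). Slc40a1 is strong in liver macrophages, and the summed level of 12 Kupffer cell and macrophage markers was 323 to 631 CPM in Smyd3-ASO, 198 to 437 in control-ASO, 356 to 522 in DEN day 133 and 314 to 558 CPM in untreated mice. In control-ASO over untreated mice 6 of these markers fell and 0 rose, where 22.2% of all genes were lower. In control-ASO over DEN day 133 mice 6 fell and 0 rose as well, where 12.6% of all genes were lower. The markers did not all move together in Smyd3-ASO over untreated mice, where 4 rose and 5 fell, against 24.4% of all genes higher and 23.2% lower. In Smyd3-ASO over control-ASO mice 3 rose and 0 fell, where 13.3% of all genes were higher, and Clec4f was at -0.69 and not called. C1qa alone was at 69.3 to 243 CPM in Smyd3-ASO and at 33.4 to 65.9 CPM in control-ASO mice. The part of macrophages in the Slc40a1 result was not tested.

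Fth1, the ferritin heavy chain that oxidises iron for storage, stood highest in untreated mice. Smyd3-ASO mice ran from 543 to 1034 CPM with a median of 640, and control-ASO mice from 717 to 973 CPM with a median of 807. Levels at DEN day 133 were 1225, 1254, 1082 and 1051 CPM, and untreated mice had 1658, 1906, 1660, 1743 and 1415 CPM. No mouse of a DEN group reached the untreated range, and no ASO mouse reached the DEN day 133 range. The log2 change was -1.31 (SE 0.20, adjusted p = 1.27e-04) for Smyd3-ASO over untreated, -1.05 (SE 0.15, adjusted p = 6.65e-05) for control-ASO over untreated and -0.51 (SE 0.14, adjusted p = 0.0124) for control-ASO over DEN day 133. DEN day 133 over untreated was -0.54 (SE 0.16, adjusted p = 0.0162), whose sign turned with total counts as the scale (0.055) but not relative to the median of all genes under it (-0.54); it missed the threshold without DEN day 133 mouse 3 (adjusted p = 0.0504) or 4 (adjusted p = 0.0556). With total counts as the scale the first 3 kept their sign but were not called (-0.40, -0.20 and -0.26), and relative to the median of all genes they were -1.36, -1.11 and -0.54. Smyd3-ASO over control-ASO was -0.24 (SE 0.17, adjusted p = 0.302), and without Smyd3-ASO mouse 6 it was -0.40 (adjusted p = 0.0413).

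Ftl1, the ferritin light chain that helps form the iron core, fell in all 3 groups against untreated mice and rose under Smyd3-ASO against control ASO. Smyd3-ASO mice ran from 736 to 933 CPM with a median of 884, and control-ASO mice from 405 to 790 CPM with a median of 482. The 4 DEN day 133 mice had 668, 560, 601 and 660 CPM, and untreated mice had 1536, 1601, 1388, 1553 and 1298 CPM. Only control-ASO mouse 3 lay within the Smyd3-ASO range, and no mouse of a DEN group reached the untreated range. Smyd3-ASO over control-ASO was 0.65 (SE 0.18, adjusted p = 0.0196) or 1.57-fold. The log2 change was -1.43 (SE 0.20, adjusted p = 5.76e-05) for control-ASO over untreated, -1.24 (SE 0.15, adjusted p = 2.40e-05) for DEN day 133 over untreated and -0.80 (SE 0.15, adjusted p = 8.12e-04) for Smyd3-ASO over untreated, the last of which turned to 0.094 with total counts as the scale, or -0.86 relative to the median of all genes. Control-ASO over DEN day 133 was -0.18 (SE 0.20, adjusted p = 0.535).

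The counts of Ftl1 are only a share of those of its near-identical copies. The processed pseudogene Ftl2-ps on chromosome 4 is 98.73% identical to the Ftl1 transcript over 552 bases and took 57.4% of the counts of the family, against 36.9% for Ftl1, 4.11% for Ftl1-ps1 and 1.62% for Ftl1-ps2. The ratio of Ftl2-ps to Ftl1 counts was 0.699 to 1.36 in Smyd3-ASO, 1.11 to 1.49 in control-ASO, 0.348 to 2.19 in DEN day 133 and 2.22 to 2.98 in untreated mice. The range in untreated mice lay above that of both ASO groups, a difference that was not tested, and which gene the reads came from cannot be told apart here. DEN day 133 mouse 4 had 230 CPM of Ftl2-ps, against 1169 to 1317 CPM in the other 3 mice of its group, at about the same Ftl1. An annotated miRNA inside Ftl1 on the same strand, Gm22133, had 0.492 to 0.501 times the Ftl1 counts in every mouse.

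With the 4 genes summed, the family was at 1484 to 2316 CPM with a median of 1783 in Smyd3-ASO mice and at 1057 to 1865 CPM with a median of 1177 in control-ASO mice. DEN day 133 mice had 2000, 1825, 2016 and 950 CPM, and untreated mice had 6171, 6655, 4694, 6232 and 4918 CPM. Smyd3-ASO over control-ASO then missed the threshold, at 0.47 (SE 0.18, adjusted p = 0.0675). Against untreated mice the change was -1.65 (SE 0.19, adjusted p = 2.01e-05) in Smyd3-ASO, -2.10 (SE 0.21, adjusted p = 3.10e-06) in control-ASO and -1.75 (SE 0.24, adjusted p = 6.72e-05) in DEN day 133 mice. For Fth1, 99.9% of the counts of the genes named as its family (Fth1, Fth-ps2 and Fth-ps3) were its own. Copies of Fth1 under other names were not searched for.

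**Figure D4:**
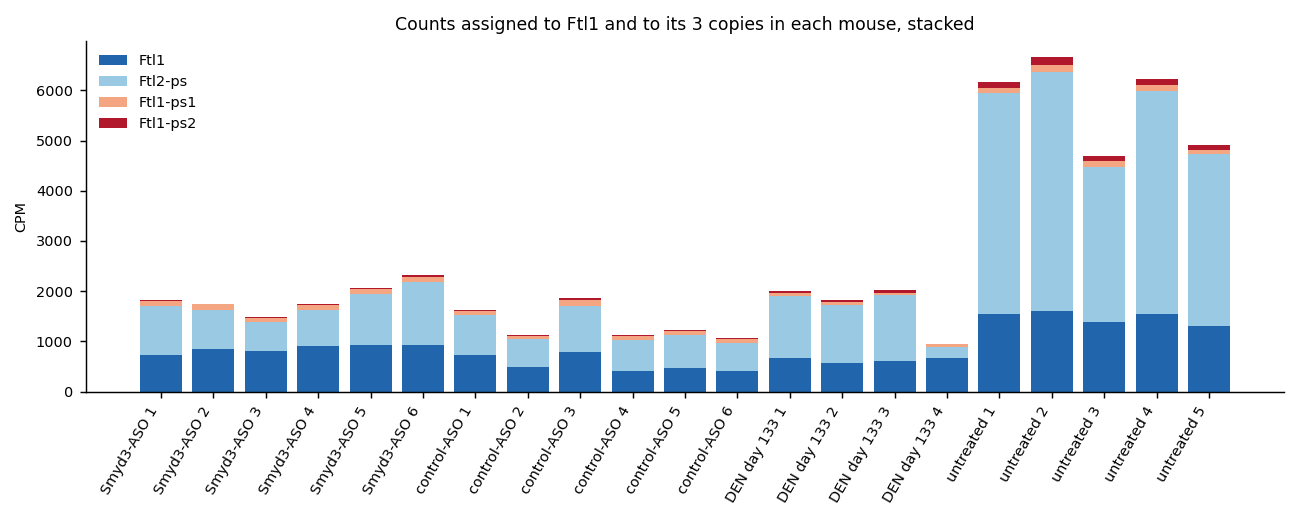
Level (CPM) assigned to Ftl1 and to the copies Ftl2-ps, Ftl1-ps1 and Ftl1-ps2 in each mouse, stacked, with Smyd3-ASO, control-ASO, DEN day 133 and untreated mice from left to right. The untreated mice stand at 4694 CPM or more in all, of which Ftl2-ps is the larger share, and DEN day 133 mouse 4 has little Ftl2-ps.

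The heavy to light chain ratio shifted between ASO groups. The log2 ratio of Fth1 to Ftl1 counts was -0.36 ± 0.30 in Smyd3-ASO, 0.60 ± 0.34 in control-ASO, 0.89 ± 0.20 in DEN day 133 and 0.18 ± 0.07 in untreated mice (SD, n = 6, 6, 4 and 5). No Smyd3-ASO mouse reached the control-ASO range, although Smyd3-ASO mouse 6, at 0.16, lay next to the lowest control-ASO mouse, at 0.17. The difference was -0.96 (exact permutation p = 0.00216, adjusted 0.0162), and -0.76 (exact permutation, adjusted p = 0.0162) with the copies summed into Ftl1. Control-ASO minus untreated was 0.42 (exact permutation p = 0.0173, adjusted 0.0260) and DEN day 133 minus untreated was 0.71 (exact permutation p = 0.0159, adjusted 0.0260); with the copies summed they were 1.06 and 1.27. Smyd3-ASO minus untreated was -0.54 (exact permutation p = 0.0130, adjusted 0.0260), but its sign turned to 0.30 (exact permutation, adjusted p = 0.0260) with the copies summed, so no direction is given for it. Control-ASO minus DEN day 133 was -0.29 (exact permutation p = 0.190, adjusted 0.204).

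**Figure D5:**
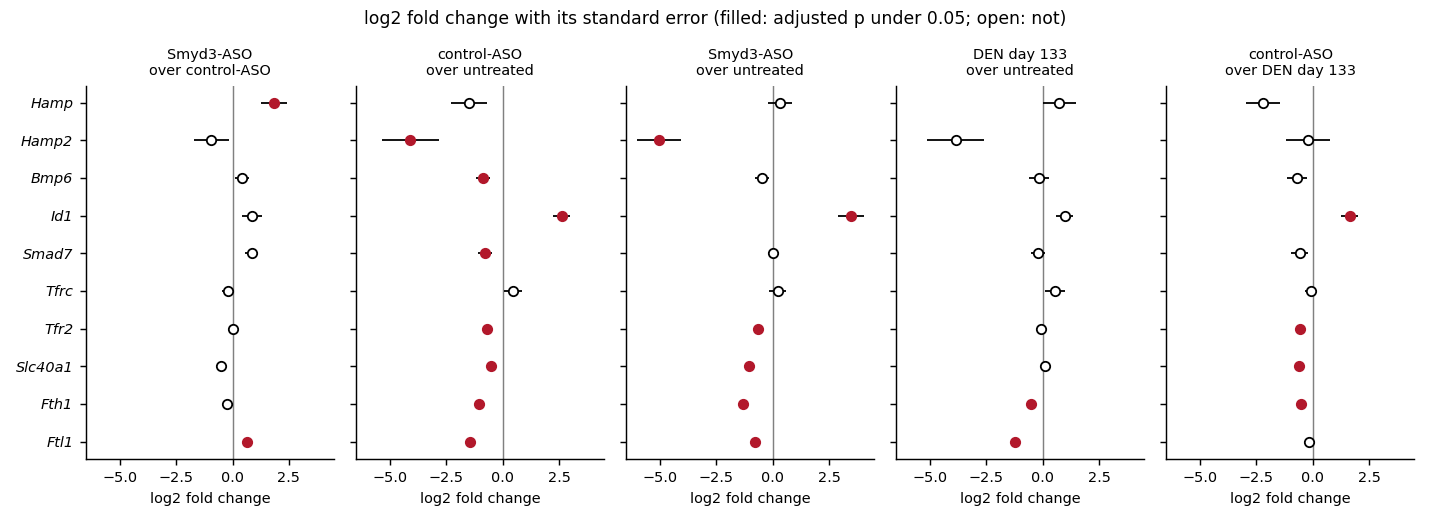
Log2 fold change (point) with its SE (line) of the 10 genes in 5 comparisons; filled points have an edgeR adjusted p below 0.05 and open points do not. Hamp and Ftl1 are filled for Smyd3-ASO over control-ASO, where Hamp is at 1.84 and Ftl1 at 0.65, and Id1 is filled on the higher side in all 3 panels with an ASO group over untreated or DEN day 133 mice.

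The scale mattered for all comparisons with untreated mice. With TMM scaling the median of all genes was at 0.06 for Smyd3-ASO over untreated, 0.06 for control-ASO over untreated, 0.0018 for DEN day 133 over untreated and 0.03 for control-ASO over DEN day 133. With total counts as the scale it stood at 0.96, 0.90, 0.59 and 0.28, and calls leaned to the higher side: 10036 higher and 687 lower genes for control-ASO over untreated, against 3620 and 3398 with TMM. For Smyd3-ASO over untreated the split was 9522 higher and 893 lower, against 3734 and 3554 with TMM. For DEN day 133 over untreated it was 6471 and 821, against 2306 and 2533, and for control-ASO over DEN day 133 it was 3855 and 985, against 2200 and 1931. Smyd3-ASO over control-ASO barely moved, with the median at 0.04 against 0.01.

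The other genes of hepcidin control and iron handling were read as lists, 78 genes of which 74 were tested. In Smyd3-ASO over control-ASO mice 10 rose and 10 fell, a share of the 74 close to the 26.1% of all genes called. Their median log2 change was 0.04, against 0.01 for all genes. Among BMP inputs the ligand Bmp4 fell by 0.63 on the log2 scale, the hemojuvelin-binding receptor Neo1 by 0.62 and the common SMAD partner Smad4 by 0.41. The inhibitory SMAD Smad6 fell by 1.50, and Id3, another BMP-SMAD target, rose by 0.60. Of 7 tested genes of interleukin-6 input 1 was called, or 14.3%, against 26.1% of all genes. It was the kinase Jak1, which fell by 0.86. The plasma iron carrier transferrin (Trf) fell by 1.73 and the ferroxidase ceruloplasmin (Cp) by 1.10, while the metalloreductase Steap4 rose by 3.20 and the mitochondrial iron importer Slc25a28 by 0.49. Smyd3-ASO mice 3 and 4 had 1331 and 421 CPM of Steap4, and the other Smyd3-ASO mice had 38.9 to 92.8 CPM. Control-ASO mice had 26.3 to 54.8 CPM, so the groups overlapped in this gene. Of 6 tested genes of the iron regulatory list 3 rose, 0 fell and 3 were not called, where 13.3% of all genes were higher. Those that rose were Ireb2 and Aco1, which encode the iron regulatory proteins, by 1.11 and 0.63, and Cisd2, which holds an iron-sulfur cluster, by 0.66. The iron chaperone for ferritin Pcbp2 rose by 0.81. Among 21 haem genes the exporter Abcg2 rose by 0.76 and the synthesis enzyme Cpox by 0.80, and the haem transporter Slc48a1 fell by 0.96. Erythroid markers moved too: of 5 tested, 3 globin genes fell and Alas2 rose, where 12.9% of all genes were lower and 13.3% higher. The summed level of the 7 erythroid markers found in the count table was 622 to 1610 CPM in Smyd3-ASO and 2027 to 5503 CPM in control-ASO mice. The part of residual blood in these results was not tested.

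In control-ASO over untreated mice 14 of the 74 other genes rose and 18 fell, 43.2% of them, near the 45.9% of all genes called, with a median of -0.15 over the 74. Of 10 receptors and sensors 5 fell and none rose, where 22.2% of all genes were lower. Tfr2 was among them, with Hfe, the partner of the transferrin receptors, at -0.98 (SE 0.16, adjusted p = 1.59e-04) and the BMP co-receptor Eng at -0.90. Bmp4 fell by 1.53, and the activin antagonist Fst rose by 2.51. Of 8 BMP-SMAD targets, a list that includes Id1 and Smad7, 4 rose and 2 fell, where 23.7% of all genes were higher and 22.2% lower. Id2 was at 1.46 and Id4 at 1.24 beside Id1. Smad7 was among those that fell, a call lost in 9 of 11 fits with 1 mouse left out. Haem oxygenase 1 (Hmox1), which frees iron from haem, rose by 3.25 and Hmox2 fell by 1.55. Alas1, the rate-limiting enzyme of haem synthesis in liver, fell by 3.33. The endosomal ferrireductase Steap3 fell by 1.82, Trf rose by 1.11 and the zinc and iron importer Slc39a14 by 0.60. Epas1, which encodes a hypoxia-inducible factor, rose by 1.06, while Aco1 fell by 0.63 and Ireb2 by 0.40. The erythroid sum was 2027 to 5503 CPM in control-ASO and 3561 to 8462 CPM in untreated mice.

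Smyd3-ASO over untreated mice gave 14 higher and 21 lower of the 74, or 47.3%, near the 47.6% of all genes called, with a median of -0.26. Of the same 10 receptors and sensors 5 fell and none rose, where 23.2% of all genes were lower, Eng at -1.34 and Hfe at -0.93. Of the same 8 BMP-SMAD targets 5 rose and 1 fell, where 24.4% of all genes were higher and 23.2% lower, with Id4 at 2.05 and Id2 at 1.19 beside Id1. Bmp4 fell by 2.17, and Gdf15, a stress-induced ligand, rose by 3.80. Of 21 haem genes 9 fell and 2 rose, 52.4% against 47.6% of all genes, with Hmox2 at -1.61, Slc48a1 at -1.29 and Urod at -0.71. All 5 tested erythroid markers fell in the same comparison, with a median of -2.06, where 23.2% of all genes were lower. The summed level of the 7 erythroid markers found was 622 to 1610 CPM in Smyd3-ASO and 3561 to 8462 CPM in untreated mice. The part of erythroid cells in the haem genes was not tested. Jak1 fell by 1.05, while Il1b rose by 2.19 and Stat3 by 1.39. DEN day 133 over untreated mice gave 9 higher and 13 lower, 29.7% of the 74 against 31.6% of all genes, and a median of -0.03, with Bmp4 at -2.46, Eng at -0.98 and Hfe at -0.68, and with the BMP-SMAD targets Atoh8 (1.18), Id3 (1.03) and Id2 (0.77) higher. Hmox1 rose by 1.85 and Hmox2 fell by 1.26 there, and Pcbp2 rose by 1.48. Control-ASO over DEN day 133 mice gave 13 higher and 16 lower of the 74, 39.2% against 27% of all genes, and a median of 0.01, with the siderophore-binding protein Lcn2 at 4.25, Trf at 1.65 and the mitochondrial iron importer Slc25a37 at -0.94. Cp rose by 1.13, Pcbp2 fell by 1.51, and among the BMP-SMAD targets Id3 fell by 0.84 and Smad6 rose by 1.21.

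Within the ASO groups Hamp was set against 5 inputs and targets over 6 mice each, 10 relations in all. None passed after adjustment. With Bmp6, Pearson's r was -0.76 (exact permutation p = 0.0694, adjusted 0.174) and Spearman's rho -0.83 (exact permutation p = 0.0583, adjusted 0.146) in Smyd3-ASO mice. In control-ASO mice it was 0.89 (exact permutation p = 0.0306, adjusted 0.160) and rho 0.89 (exact permutation p = 0.0333, adjusted 0.111). With Socs3, an interleukin-6 target, r was 0.82 (exact permutation p = 0.0319, adjusted 0.160) and rho 0.89 (exact permutation p = 0.0333, adjusted 0.111) in Smyd3-ASO mice, and r was -0.76 (exact permutation p = 0.0972, adjusted 0.192) and rho -0.94 (exact permutation p = 0.0167, adjusted 0.111) in control-ASO mice. Leaving out the 2 mice farthest from the median left r at -0.50 and 0.73 for Bmp6 and at 0.92 and -0.84 for Socs3. For Id1, Smad7 and Saa1 the adjusted p of r was 0.162 to 0.814. With 6 mice a group, none of these relations can be called.

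The gene most like Hamp over all 21 mice was Acot1, a long-chain acyl-CoA thioesterase, followed by Ugt3a1, Oat, Acaa1b and Acss3. The likeness is the root mean square difference of log2 CPM centred on each gene's mean over the mice, 0.860 for Acot1 and 0.890 for Acss3, where Hamp itself spread by 1.47. Acot1 averaged 16.2 CPM in Smyd3-ASO, 5.95 in control-ASO, 31.0 in DEN day 133 and 8.59 CPM in untreated mice, and Oat, a mitochondrial aminotransferase, averaged 237, 77.0, 195 and 225 CPM. Hamp2, beside Hamp on chromosome 7, ranked 14136 of 15296 genes by the same measure, at 2.04.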

How the data were processed

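RNA of liver pieces from 21 mice was read as 35 libraries with a 3' end kit named in the labels' protocols, and the authors deposited raw counts per Ensembl gene with 1 column per mouse, the libraries of an ASO mouse (1 to 3) being merged into its column, per the file headers. Per the submitters' processing notes, HISAT2 2.1.0, DESeq and the mm10 genome were used; the counting program, its annotation and its use of strand are not given in the sources used here. A second deposited table holds a normalized score made by the authors, which equals the raw count over a size factor within 0.51 for 100% of values and was not used for results. All 55413 genes matched GENCODE vM21, which gave symbols and positions. Promoter sequences are RefSeq's (GRCm38.p6).

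Raw counts were tested with edgeR 4.0.16 in R 4.3.3 on the 2 groups of each comparison (TMM scaling, robust quasi-likelihood fit, filterByExpr over the 4 groups). DESeq2 1.42.0 and limma 3.58.1 (voom) were alternatives. CPM values are scaled by TMM over all mice. Ratios within a mouse added 0.5 to each count and were compared by exact two-sided permutation tests, adjusted over 15 tests. The edgeR test was also run on simulated counts in which some genes were changed by known folds.

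The members and lists were chosen with earlier results of these data known. All members are named in each comparison, and of each other list the 3 genes with the smallest adjusted p among those called, of which the text gives most. Txndc5, the copies of Ftl1, Saa1, Dbp, Arntl, the acute-phase and erythroid genes named and the mice left out for their Dbp were chosen after their values were seen. Erfe, Nog, Il6 and Ftmt had too few counts to be tested. Labels call mice of a group biological replicates. The number of mice and the depth, 4556484 to 20258619 counts per mouse, limit precision, and low counts such as those of Bmp6 are the least precise. No promoter table entry was used for Id1, Smad7 and Slc40a1.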

Additional observations from a re-analysis of the deposited data

Results flagged for a closer look

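Of 52 groups of 4 to 6 mice tested on unlogged CPM for a single mouse far from the rest, 8 held one. The threshold flags about 1 in 20 groups by chance only if values are normally distributed. That was not tested for these CPM values, so no excess over chance is read from the 8. Hamp2 was at 60.1 CPM in control-ASO mouse 3, against at most 6.47 CPM in the other 5 control-ASO mice, and at 754.9 CPM in untreated mouse 1. Id1 was at 91.3 CPM in Smyd3-ASO mouse 1, against 15.5 to 33.4 CPM in the rest of its group, and at 6.09 CPM in untreated mouse 4. Untreated mouse 5 stood apart for Tfrc, at 29.9 CPM, and for Slc40a1, at 82.1 CPM. It is also the mouse of 30504 CPM Saa1, and what set it apart was not tested. Fth1 was at 1034 CPM in Smyd3-ASO mouse 6. Ftl2-ps was at 229.7 CPM in DEN day 133 mouse 4, whose Ftl1 was at 660 CPM and within the range of its group.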

How the results depend on the processing

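Settings were other scalings, no filter, DESeq2, limma voom, 1 fit of all groups, the replicate block, other pseudocounts, leaving out each mouse, and, added after the data were seen, the Ftl1 copies summed and the 3 mice set apart by Dbp left out. Of 448 values of single genes under the other settings 391 kept direction and side of the threshold, and of 530 with 1 mouse left out 479 did. Of the ratios within a mouse 19 of 20 and 136 of 159 did, and of the 159 with 1 mouse left out 17 lost their call and 4 turned sign. The cause of the changes below was not tested, except that smaller groups give less power.

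For Smyd3-ASO over control-ASO, members called moved from 2 to 1 without a filter and with the Ftl1 copies summed, and to 4 in 1 fit of all groups, and ran from 1 to 4 with 1 mouse left out. For control-ASO over untreated 8 became 4 with total counts as the scale, and ran from 5 to 8 with 1 mouse left out. For DEN day 133 over untreated 2 became 5 with total counts and 4 without the mice set apart by Dbp, and ran from 1 to 4 with 1 mouse left out. For control-ASO over DEN day 133, 4 became 2 with total counts.

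With total counts as the scale, signs turned for control-ASO over untreated in Smad7 (0.047), Tfr2 (0.18) and Slc40a1 (0.33); for Smyd3-ASO over untreated in Bmp6 (0.47), Tfr2 (0.22) and Ftl1 (0.0938); for DEN day 133 over untreated in Bmp6 (0.42), Smad7 (0.38), Tfr2 (0.51) and Fth1 (0.0553); and for control-ASO over DEN day 133 in Hamp2 (0.0085), Tfrc (0.18) and Ftl1 (0.0592). With limma voom they turned for Hamp2 in Smyd3-ASO over control-ASO (0.0433) and for Smad7 in Smyd3-ASO over untreated (-0.0259). Without the mice set apart by Dbp Hamp2 turned in control-ASO over DEN day 133 (0.19). The log2 ratio of Fth1 to Ftl1 for Smyd3-ASO minus untreated turned to 0.30 with the copies summed.

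With 1 mouse left out, Hamp2 in Smyd3-ASO over control-ASO ran from -1.30 to 0.60, Tfr2 there from -0.0412 to 0.10, Smad7 in Smyd3-ASO over untreated from -0.0825 to 0.14, Bmp6 in DEN day 133 over untreated from -0.50 to 0.16 and Tfrc in control-ASO over DEN day 133 from -0.23 to 0.0289. The Hamp2 to Hamp ratio ran from -2.97 to -1.81 for control-ASO minus untreated and from 1.25 to 1.87 for control-ASO minus DEN day 133. The Hamp to Id1 ratio ran from 1.31 to 2.13 for Smyd3-ASO minus control-ASO and from -0.51 to 0.45 for DEN day 133 minus untreated.

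Replicate numbers did not pair the mice, since deviations of same-numbered mice correlated at -0.123 to 0.11 over 24 pairs, with 1 above 0.1, and 1 mouse correlated best with its own number. With the numbers as a replicate block, members called were 5 for control-ASO over untreated and 2 for control-ASO over DEN day 133. Not called under it were Hamp2 (adjusted p = 0.172), Bmp6 (0.137) and Smad7 (0.0624) in control-ASO over untreated and Tfr2 (0.0575) and Fth1 (0.124) in control-ASO over DEN day 133. Tfrc passed in DEN day 133 over untreated (0.00293), and Smad7 in Smyd3-ASO over untreated was -0.0253. Over all genes the block gave 1516 higher and 1576 lower calls for Smyd3-ASO over control-ASO, against 2028 and 1972 without it, and 1396 and 1134 for control-ASO over DEN day 133, against 2200 and 1931.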
